A study of Homo sapiens with 6 samples.

Results

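The ATP-binding cassette (ABC) genes were taken from a bulk RNA-seq comparison of A2780 cells, a human ovarian cancer cell line, with and without recombinant collapsin response mediator protein-2 (r-CRMP2). They were chosen by name: every protein-coding row made of ABC, a subfamily letter from A to G and a number. The rule found 45 of 44591 rows. The 3 untreated libraries and the 3 r-CRMP2 libraries were all wild-type A2780 cells grown in DMEM with fetal bovine serum. The r-CRMP2 was human protein added to the medium at 40 ng/ml, and cells were sampled at 48 h. The study took up CRMP2 because cancer-associated fibroblasts secrete it. A2780 is a single established line, and the labels do not say whether the 3 libraries of a group came from separate cultures, so p-values measure the spread between these libraries, which may be technical. Because the cultures were sequenced in bulk, fewer cells with a transcript and less of it per cell cannot be told apart.

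ABC proteins bind and hydrolyse ATP, and most use that energy to move a substrate across a membrane. The family is known in oncology for drug efflux: P-glycoprotein (ABCB1), the multidrug resistance-associated proteins (MRPs, in subfamily C) and the breast cancer resistance protein (ABCG2) can export cytotoxic drugs or their conjugates. Other members move sterols and phospholipids (A and part of G), work in mitochondria and lysosomes (part of B) or carry fatty acyl-CoA into peroxisomes (D). The E and F proteins have no membrane domain and take part in translation. The mRNA of a transporter is not its activity, and neither protein nor drug transport was measured in these libraries.

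Libraries held 21888530 to 25711353 counts, and replicates correlated at 0.989 to 0.993 against 0.955 to 0.969 between the groups. CPM values, a gene's count as a share of its library total, are scaled by the trimmed mean of M values (TMM), whose factors were 1.1 to 1.12 in untreated and 0.878 to 0.922 in r-CRMP2 libraries. That gap puts log2 fold changes lower by about the same amount for every gene when library size alone is used: over all genes tested, the median was -0.03 under TMM and -0.34 when only library size was divided out. TPM values are as deposited, counts divided by gene length and set to the same sum in every library, and serve to compare levels between genes. The epithelial keratin KRT8 averaged 1362 TPM in untreated cells, while the markers CDH1 and WT1 were near 0. Of the 8 markers of this line tested, 3 were higher and 1 lower with r-CRMP2, and of 9 fibroblast markers 3 were higher and 3 lower, with sums of 277.6 to 317.5 TPM in untreated and 197.2 to 211.7 TPM in r-CRMP2 libraries. The 5 blood markers summed to 28.39 to 33.38 TPM and then 77.67 to 79.51 TPM, nearly all of it CD68, which rose (log2 fold change 1.69, adjusted p = 3.01e-12, edgeR), while the leukocyte markers PTPRC and CD3E were near 0. The 4 endothelial markers summed to 3.607 to 3.939 TPM and then 0.6486 to 1.077 TPM, mostly CDH5, which fell (-1.96, adjusted p = 8.48e-08, edgeR). For comparison with these marker counts, 28.2% of all genes tested were higher and 30.1% lower. The part of other cells in any result was not tested.

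Of the 45 genes, 30 had enough counts to be tested with edgeR's quasi-likelihood test, adjusted over 16222 genes, and 19 of them (63.3%) were called in either direction, against 58.2% of all genes tested. With r-CRMP2, 4 of the 30 (13.3%) rose and 15 (50%) fell at an adjusted p under 0.05, against 28.2% and 30.1% of all genes tested. ABCG2, a drug efflux pump, was the 1 member past both thresholds (adjusted p under 0.05 and a log2 fold change beyond 1 in either direction), and it fell to 0.490 times its untreated level. The sterol exporter ABCG1 had the largest positive change of the 30, to 1.92 times, and ABCC3 and ABCB6 were among those that rose by less. The other 14 that fell included ABCC2, ABCC10 and ABCC5 among the MRPs, the lipid transporters ABCA3 and ABCA7, the peroxisomal ABCD3 and the soluble ABCE1, ABCF2 and ABCF3.

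How many members rose and how many fell depended on the scaling. Rises made up 21.1% of the calls with TMM and 4.17% with library size alone, under which 1 member rose (ABCG1) and 23 fell, including all 15 above. These were 3.33% and 76.7% of the 30 members tested, against 13.4% higher and 52.1% lower of all genes under that scaling. The median log2 fold change of the 30 was -0.32 (-0.63 with library size alone), and it differed from the median of all genes tested by -0.29 under either scaling, or by -0.10 with no low-count filter. No member rose past both thresholds, at the adjusted or the unadjusted p or with DESeq2, against 5.12% of all genes. The 1 that fell past both compares with 8.86% of all genes, and the count was 2 at an unadjusted p and 1 with DESeq2. All genes include noncoding rows, while the members are protein-coding. Under TMM, 3845 of the 12805 protein-coding genes tested were higher and 4012 lower, 435 and 947 of them past both thresholds. The libraries of the groups did not overlap for 21 of the 30 (70%), against 64.2% of all genes.

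The promoter sequences available for the members were read from RefSeq (GRCh38.p14), as the 250 bases before each annotated start, and 35 of the 45 genes matched, with 53 windows. Shown are a window of ABCG2, which had the only fall past both thresholds, and the window of ABCB6, the only riser with an entry. Both hold CACGTG, an E-box that contains the hypoxia response core ACGTG, marked by capitals. The ABCG2 window is chr4:88158910-88159159 on the minus strand, 1 of 5 for this gene, and was shown because it holds the letters. The ABCB6 window is chr2:219218959-219219208 on the minus strand. Both run 5′ to 3′.

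ABCG2: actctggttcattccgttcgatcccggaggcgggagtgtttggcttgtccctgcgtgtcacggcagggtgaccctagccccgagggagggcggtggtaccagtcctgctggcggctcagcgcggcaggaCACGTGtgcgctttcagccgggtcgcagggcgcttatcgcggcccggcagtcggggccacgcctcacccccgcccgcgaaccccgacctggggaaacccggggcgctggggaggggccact

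ABCB6: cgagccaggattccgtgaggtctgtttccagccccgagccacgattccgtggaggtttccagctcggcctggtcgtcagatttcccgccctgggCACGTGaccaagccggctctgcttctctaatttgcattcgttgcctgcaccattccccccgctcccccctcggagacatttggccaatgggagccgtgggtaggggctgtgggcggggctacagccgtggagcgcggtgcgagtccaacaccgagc

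Searched on both strands, ACGTG was in 13 of the 53 member windows and in 18.5% of 35116 windows of the same length, and CACGTG, whose matches are all ACGTG matches too, was in 9 and in 6.34%. Overlapping windows of ABCG2 hold the same CACGTG, so by gene ACGTG was in 12 of 35 and CACGTG in 8. By gene, CACGTG was in 3 of the 13 that fell and had an entry (ABCB9, ABCC10 and ABCG2), in 3 of 9 that were not called (ABCA1, ABCA9 and ABCF1) and in ABCB6. It was also in ABCA12, 1 of 12 with an entry that were not tested. The letters were thus found beside genes of either direction and of none. The antioxidant response core TGACNNNGC was in 9 member windows (10.9% of all), the GC box GGGCGG in 25 (42.6%) and TATAAA in 6 (10.7%). The direct repeat with a 4-base spacer (DR4) that liver X receptors bind was searched for in its exact consensus form only, with no mismatch. That form was in none of the 53 and in 0.0142% of all windows. Copies with a mismatch were not searched for, so whether the windows, that of ABCA1 included, hold such a site was not tested. ABCG1 had no window. A match is a description of the letters only.

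In untreated cells, 22 members were at 10 TPM or more, 4 lay between 1 and 10 TPM, and 19 were below 1 TPM. ABCA2, an endolysosomal lipid transporter, was the highest at 120.8, 127.5 and 115.7 TPM, a mean of 121.3 ± 5.95 (SD, n = 3). ABCF1, a translation initiation protein, followed at 98.66, 95.71 and 105.5 TPM. Their library ranges overlapped neither each other nor that of the next gene. ABCB6, ABCC2, ABCF2 and ABCF3 came next with means from 50.11 to 55.58 TPM, and each overlapped its neighbour in the order. ABCC1, ABCA7 and ABCC3 then ran without a gap from 47.43 ± 0.425 to 41.56 ± 6.69 TPM (SD, n = 3), ABCC3 having the widest spread, 47.87, 42.27 and 34.54 TPM.

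A second shelf of 7 genes, ABCD4, ABCG1, ABCA3, ABCC5, ABCC4, ABCG2 and ABCB10, spanned means of 13.92 to 11.44 TPM, and neighbours on it did not differ beyond their spread. Between the 2 sets sat ABCD3 (28.42 TPM), ABCE1 (24.13 TPM), ABCB8 (23.19 TPM) and ABCB9 (20.01 TPM), of which only ABCE1 and ABCB8 overlapped. Below 10 TPM were ABCC10 at 4.36 TPM, then ABCA8, ABCA5 and ABCC6. The sterol exporter ABCA1, which hands cholesterol to apolipoprotein A-I, averaged 0.970 ± 0.238 TPM (SD, n = 3). Drug efflux in these cells was thus represented by MRP and ABCG2 transcripts, with ABCC2 at 54 ± 3.39 TPM (SD, n = 3) the highest mean on that list and ABCB1 at 0.0643 TPM.

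**Figure D1:**
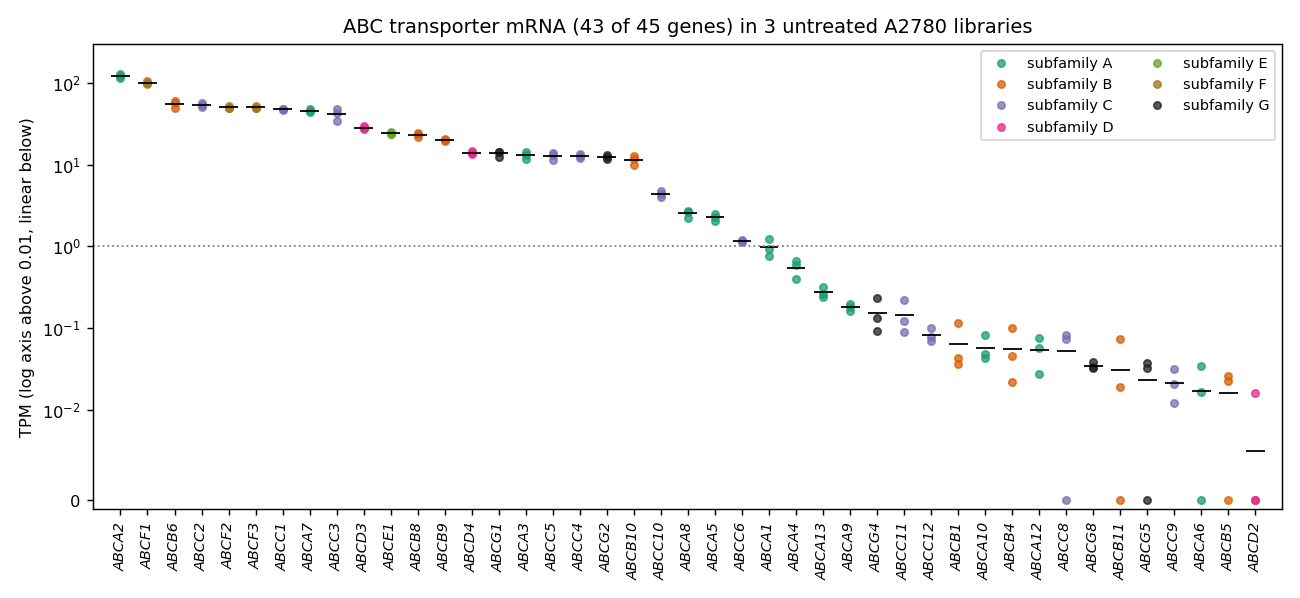
Deposited TPM of 43 of the 45 ABC genes in the 3 untreated A2780 libraries, ordered by mean (bar), with 1 point a library coloured by subfamily. The vertical axis is logarithmic above 0.01 TPM and linear below, and the dotted line marks 1 TPM. ABCA2 and ABCF1 stand apart at the top, and 19 genes lie below 1 TPM.

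The summed TPM of the 45 genes was 842, 859.4 and 845.5 in untreated cells and 677.5, 589.3 and 650.4 with r-CRMP2. The groups did not overlap, and the members took 0.192 to 0.197% of all counts in untreated and 0.138 to 0.155% in r-CRMP2 libraries. Neither measure is TMM scaled, and with library size alone the median log2 fold change of all genes tested was -0.34. Within the summed TPM, subfamily A went from a mean of 22 to 22.4% and C from 20.5 to 20%, with overlapping libraries. The B subfamily went from 17.1 to 20% and G from 3.09 to 4.05%, and in both every r-CRMP2 library was above every untreated one. The D share went from 10.8 to 9.95%, E from 2.84 to 2.45% and F from 23.6 to 21.2%, and in these every r-CRMP2 library was below every untreated one. These shares are TPM over TPM within a library and do not depend on the scaling.

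**Figure D2:**
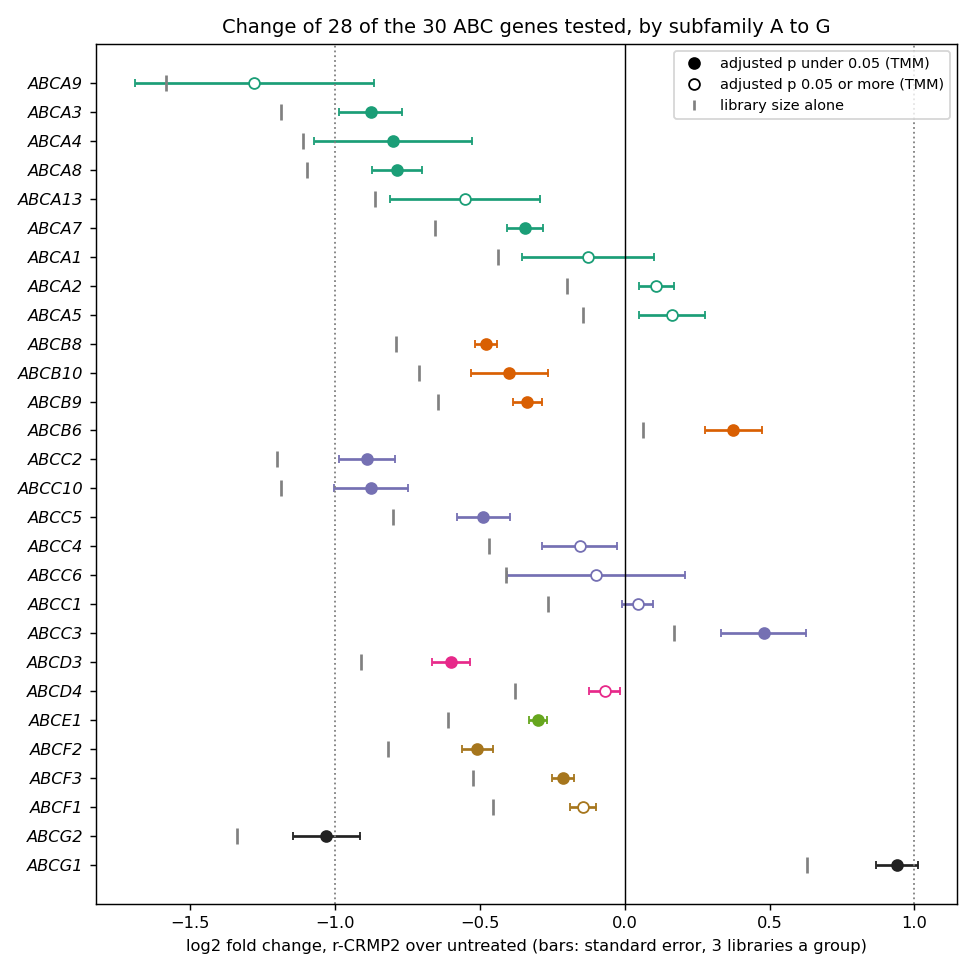
Log2 fold change, r-CRMP2 over untreated, of 28 of the 30 ABC genes tested, with standard error bars from 3 libraries a group. Filled points have an adjusted p under 0.05 with TMM scaling, ticks give the value with library size alone, and dotted lines mark a change of 1. ABCA9 (open, not called) and ABCG2 lie past -1, ABCG1 is the only filled point on the right whose tick also passed the test, and the ticks of ABCA2, ABCA5 and ABCC1 are on the other side of 0.

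The drug and organic anion efflux list held 14 members, of which 8 were tested, 1 rose and 4 fell, with a median log2 fold change of -0.32. Of all genes tested, 28.2% rose and 30.1% fell. ABCG2 (hg19 chr4:89011416-89152474, minus strand) exports a broad range of drugs and urate. It was at 24.34, 22.34 and 25.77 CPM in untreated and 13.32, 10.50 and 11.66 CPM in r-CRMP2 libraries. Every untreated library was above every r-CRMP2 library, and the log2 fold change was -1.03 (SE 0.12, adjusted p = 6.03e-08, edgeR's quasi-likelihood test). Its place past the fold threshold rests on single libraries: the change was -0.98 without untreated replicate 3 and -0.94 without r-CRMP2 replicate 2.

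ABCC2 (MRP2, hg19 chr10:101542355-101611949, plus strand) exports glutathione, glucuronide and platinum conjugates, mostly at apical membranes. Its levels were 114.5, 119.7 and 127.2 CPM in untreated and 71.16, 57.97 and 65.91 CPM in r-CRMP2 libraries. The groups lay far apart, with a log2 fold change of -0.89 (SE 0.10, adjusted p = 7.24e-09, edgeR). ABCC10 (MRP7), known for exporting taxanes in cultured cells, was at 9.12, 10.50 and 9.673 CPM and then 6.171, 5.049 and 4.742 CPM. It fell without overlap, by 0.88 on the log2 scale (SE 0.13, adjusted p = 2.01e-05, edgeR). Its 3′ end overlaps DLK2 on the opposite strand, which rose (0.73, adjusted p = 0.00315, edgeR). The library kit does not mark strand, so reads in the overlap could not be told apart by strand.

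ABCC5 (MRP5), an exporter of cyclic nucleotides and nucleotide analogues, was at 34.36, 40.61 and 38.51 CPM in untreated and 29.13, 25.45 and 26.32 CPM in r-CRMP2 libraries. All r-CRMP2 values were below all untreated ones, and the log2 fold change was -0.49 (SE 0.09, adjusted p = 5.65e-05, edgeR). ABCC3 (MRP3), a basolateral exporter of glucuronides and bile salts, moved the other way, from 105.1, 90.16 and 74.32 CPM to 128.1, 123.0 and 124.9 CPM. The untreated libraries were spread and the r-CRMP2 libraries close together, without overlap, and the gene rose by 0.48 (SE 0.15, adjusted p = 1.29e-04, edgeR). With library size alone the change of ABCC3 was 0.17 and lost its call (adjusted p = 0.101).

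ABCC1 (MRP1), a widely expressed exporter of glutathione conjugates and anthracyclines, was at 128.4, 126.4 and 127.9 CPM in untreated and 136.7, 121.9 and 136.3 CPM in r-CRMP2 libraries. The groups overlapped, and the difference in mean log2 CPM was 0.04 with a 95% interval of -0.11 to 0.20 (adjusted p = 0.567, edgeR), while with library size alone it turned to -0.26 and passed the test. ABCC4 (MRP4), an exporter of cyclic AMP and prostaglandins, was at 31.13, 32.02 and 34.42 CPM and then 30.62, 32.52 and 24.67 CPM. One r-CRMP2 library lay among the untreated ones and the others lay below them, and the difference was -0.16 with an interval of -0.52 to 0.20 (adjusted p = 0.161, edgeR). Without r-CRMP2 replicate 2 ABCC4 was called lower (-0.23, adjusted p = 0.0408, edgeR). ABCC6, the transporter mutated in pseudoxanthoma elasticum, was at 2.621, 2.604 and 2.738 CPM and then 2.665, 3.282 and 1.566 CPM, which overlapped (log2 fold change -0.10, SE 0.31, adjusted p = 0.75, edgeR). Its counts are uncertain, because near-identical pseudogene copies of its first exons could take or lend reads.

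The other 6 genes of the list were too low to test, with at most 12 counts in any library. ABCB1, the drug pump most often studied in resistant lines, had 2, 2 and 6 counts in untreated and 1, 1 and 0 counts in r-CRMP2 libraries. The groups did not overlap, but these counts were too few for a test. The bile pumps ABCB4 and ABCB11, ABCB5, and the paired genes ABCC11 and ABCC12 had 0 to 12 counts each.

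**Figure D3:**
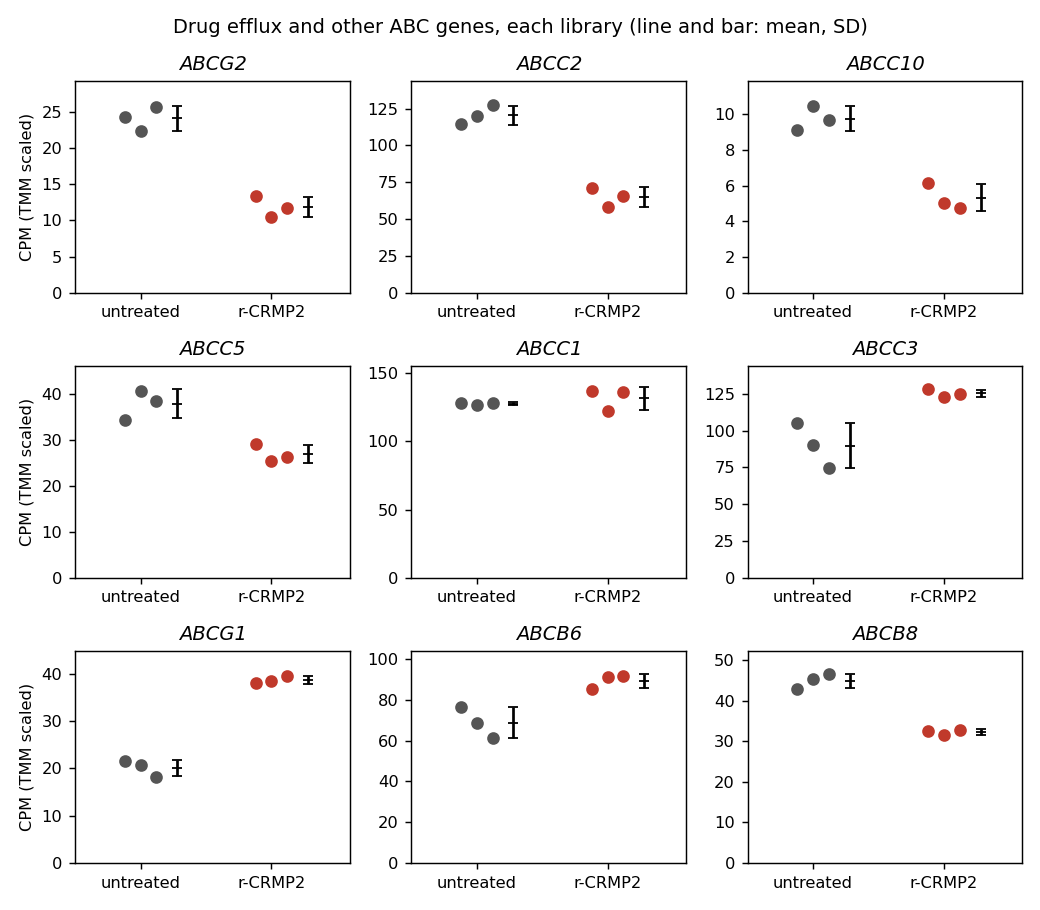
CPM (TMM scaled) of 9 ABC genes in each library, 3 untreated (grey) and 3 r-CRMP2 (red), with the mean and SD at the side of each group. Every axis starts at 0. ABCG2, ABCC2, ABCC10, ABCC5 and ABCB8 are lower and ABCC3, ABCG1 and ABCB6 higher without overlap, while the groups of ABCC1 overlap. With library size alone the higher calls of ABCC3 and ABCB6 were lost and ABCC1 was lower.

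Of the 10 sterol and phospholipid transporters, 6 were tested, 1 rose and 3 fell (median log2 fold change -0.23). The shares over all genes tested were 28.2% higher and 30.1% lower. ABCG1 (hg19 chr21:43619799-43717354, plus strand) moves cholesterol toward high-density lipoprotein. It was at 21.51, 20.79 and 18.29 CPM in untreated and 38.06, 38.53 and 39.68 CPM in r-CRMP2 libraries. The r-CRMP2 libraries were close to each other and all higher, with a log2 fold change of 0.94 (SE 0.07, adjusted p = 1.11e-08, edgeR), or 0.63 with library size alone (adjusted p = 4.22e-06). ABCA1, which like ABCG1 is a textbook target of liver X receptors, was at 3.303, 3.947 and 5.256 CPM and then 4.254, 3.181 and 4.002 CPM. These overlapped, and the difference for ABCA1 was -0.11 in mean log2 CPM with a 95% interval of -0.75 to 0.52, wide enough to hold a rise of some size or a fall (adjusted p = 0.601, edgeR).

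ABCA3, which loads surfactant phospholipid into lamellar bodies in the lung, was at 32.53, 35.03 and 38.76 CPM in untreated and 21.55, 18.18 and 18.23 CPM in r-CRMP2 libraries. It fell without overlap (log2 fold change -0.88, SE 0.11, adjusted p = 1.32e-07, edgeR). ABCA7, a phospholipid transporter linked to Alzheimer's disease, fell from 128.9, 131.5 and 121.5 CPM to 106.5, 93.82 and 100.7 CPM (-0.34, SE 0.06, adjusted p = 1.69e-04, edgeR). ABCA2 was at 420.8, 431.4 and 394.7 CPM and then 468.5, 421.3 and 456.1 CPM. Those groups overlapped, with a difference of 0.11 and an interval of -0.06 to 0.28 (adjusted p = 0.151, edgeR), which turned to -0.20 with library size alone (adjusted p = 0.00954) and passed the test as a rise of 0.16 without r-CRMP2 replicate 2 (adjusted p = 0.0194). ABCA4, the retinoid transporter of photoreceptors, had only 34 to 48 counts in untreated and 16 to 24 counts in r-CRMP2 libraries (-0.80, SE 0.27, adjusted p = 0.0332, edgeR). The call for ABCA4 was lost with DESeq2 (adjusted p = 0.0588) and without any 1 of untreated replicates 2 and 3 and r-CRMP2 replicate 3 (adjusted p from 0.0966 to 0.137). ABCA12, ABCG4, ABCG5 and ABCG8 had 0 to 9 counts and were not tested.

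The remaining A genes sit mostly in 1 cluster on chromosome 17, and their substrates are less well known. ABCA8 fell from 5.565, 6.469 and 6.570 CPM to 3.740, 3.383 and 3.654 CPM (log2 fold change -0.78, SE 0.09, adjusted p = 2.34e-04, edgeR). ABCA9 had 13, 10 and 14 counts in untreated and 3, 7 and 2 counts in r-CRMP2 libraries. Its change of -1.28 missed the threshold (adjusted p = 0.0511, edgeR) and was -1.98 and called without r-CRMP2 replicate 2 (adjusted p = 0.0184). ABCA5 (0.16, adjusted p = 0.275) and ABCA13 (-0.55, adjusted p = 0.0951) were not called by edgeR, ABCA13 was called without r-CRMP2 replicate 2 (-0.82, adjusted p = 0.0247), and ABCA6 and ABCA10 had at most 6 counts. Over the whole A subfamily 9 genes were tested, 0 rose and 4 fell, against 28.2% and 30.1% of all genes tested. The median log2 fold change of the 9 was -0.55. At the unadjusted p no A gene rose either with edgeR, and none rose at the adjusted p with DESeq2. Without r-CRMP2 replicate 2, ABCA2 was called higher (0.16, adjusted p = 0.0194, edgeR).

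The B subfamily also holds proteins of mitochondria and lysosomes, and ABCB6, ABCB8, ABCB9 and ABCB10 were all called. Over all genes tested, 58.2% were called in either direction. ABCB6, a porphyrin transporter, went from 76.44, 68.68 and 61.25 CPM to 85.09, 90.99 and 91.58 CPM. The groups did not overlap, and it rose by 0.37 (SE 0.10, adjusted p = 2.93e-04, edgeR), but with library size alone its change was 0.06 and it was not called. ABCB8, a mitochondrial protein tied to potassium channels and iron, fell from 43.05, 45.33 and 46.54 CPM to 32.54, 31.51 and 32.89 CPM (-0.48, SE 0.04, adjusted p = 1.2e-05, edgeR). ABCB10, which takes part in heme synthesis, fell by 0.40 (SE 0.13, adjusted p = 0.0041, edgeR), and the lysosomal peptide transporter ABCB9 by 0.34 (SE 0.05, adjusted p = 0.00104, edgeR).

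Among the D genes, the peroxisomal half-transporter ABCD3 fell from 44.56, 42.15 and 45.99 CPM to 31.42, 28.02 and 28.19 CPM (log2 fold change -0.60, SE 0.06, adjusted p = 1.66e-06, edgeR). ABCD4, a lysosomal protein of cobalamin export, was not called (-0.07, adjusted p = 0.532, edgeR), and a sense-overlapping transcript in it rose by 1.22 (adjusted p = 3.46e-04) from 83 to 156 counts summed over each group. ABCD2 had 0 or 1 count in every library.

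The soluble genes were all expressed, and 3 of 4 fell, against 30.1% of all genes tested. ABCE1, which splits ribosomes after termination, was at 41.04, 40.28 and 43.07 CPM in untreated and 34.08, 33.78 and 33.24 CPM in r-CRMP2 libraries. Each group was narrow and they did not overlap (log2 fold change -0.30, SE 0.03, adjusted p = 0.00127, edgeR). ABCE1 shares its start with ANAPC10 on the opposite strand, which was not called. ABCF2 fell from 102.4, 99.11 and 106.5 CPM to 74.29, 67.71 and 74.61 CPM (-0.51, SE 0.05, adjusted p = 1.78e-06, edgeR), and ABCF3, a partner in translational control, fell by 0.21 (SE 0.04, adjusted p = 0.0116, edgeR). ABCF1 was at 142.4, 134.1 and 149.3 CPM and then 129.0, 127.2 and 129.4 CPM, without overlap but short of the threshold (-0.14, SE 0.05, adjusted p = 0.0535, edgeR). ABCF1 passed without untreated replicate 2 (-0.18, adjusted p = 0.0442, edgeR) and when at least 10 counts were asked of every library (-0.16, adjusted p = 0.0302, edgeR).

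ABCC8 and ABCC9, the sulfonylurea receptors of potassium channels, had 0 to 4 counts each and were not tested. By subfamily, the called genes were spread: A had 4 lower of 9 tested, C had 1 higher and 3 lower of 7, F had 2 lower of 3, and G had 1 of each of 2. Over all genes tested, 28.2% were higher and 30.1% lower.

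Differences between pairs of ABC genes were described by the ratio of their TPM within each library, a measure that does not depend on scaling. The 5 pairs were chosen after the values were seen, so no test was made. ABCG1 over ABCG2 was 1.17, 1.23 and 0.937 in untreated and 3.77, 4.84 and 4.49 in r-CRMP2 libraries. The pair was near parity in untreated cells and ABCG1 was several times higher in every r-CRMP2 library. ABCC3 over ABCC2 went from 0.777 ± 0.173 to 2.0 ± 0.171 (SD, n = 3), and ABCC1 over ABCC2 from 0.880 ± 0.0481 to 1.69 ± 0.0804 (SD, n = 3). The order of the MRPs was thus turned over: ABCC2 was highest in every untreated library and lowest of the 3 in every r-CRMP2 library. ABCG1 over ABCA1 went from 14.8 ± 4.44 to 30.1 ± 4.73 and ABCB6 over ABCB8 from 2.41 ± 0.362 to 4.33 ± 0.216 (SD, n = 3). The libraries of the groups overlapped in none of the 5 ratios, which the choice of pairs could bring about by itself. No share over other gene pairs was computed, and among single genes tested 64.2% did not overlap.

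**Figure D4:**
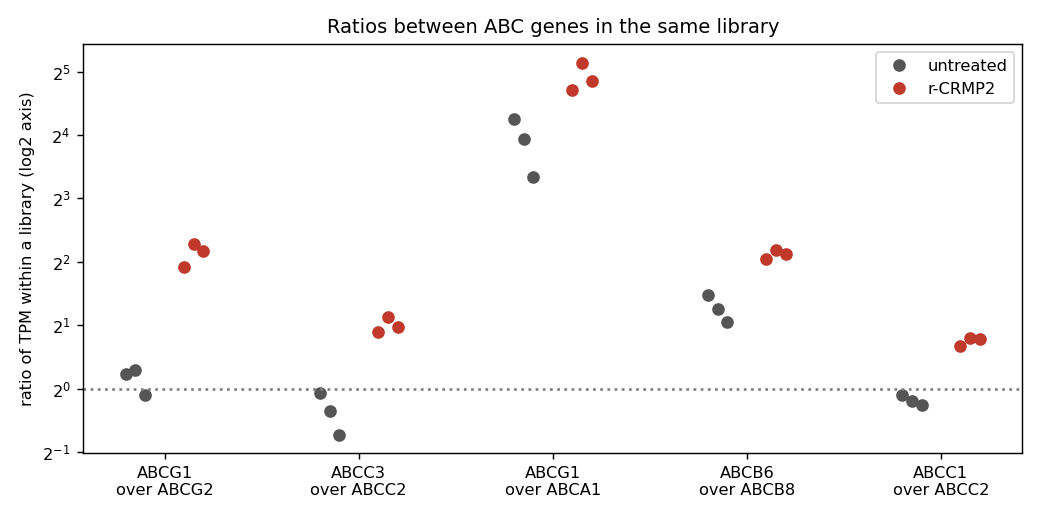
Ratios of deposited TPM between pairs of ABC genes within each library, 3 untreated (grey) and 3 r-CRMP2 (red), on a log2 axis with parity dotted. The pairs were chosen after the values were seen. In each pair the r-CRMP2 libraries lie above the untreated ones without overlap, and ABCC3 over ABCC2 and ABCC1 over ABCC2 cross parity.

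Related genes outside the naming rule were counted from lists, beside 28.2% higher and 30.1% lower of all genes tested. Among ABC proteins with other names, TAP1 and TAP2 form the peptide transporter of antigen presentation. TAP2 fell (log2 fold change -0.40, SE 0.03, adjusted p = 4.66e-05, edgeR), while TAP1 was at 89.19, 89.51 and 94.10 CPM and then 94.44, 95.44 and 99.71 CPM (0.09, SE 0.03, adjusted p = 0.245, edgeR). The chloride channel CFTR was too low to test. Of 8 platinum and copper transport genes tested, 1 rose and 1 fell (median -0.06). The copper importer SLC31A1, which also admits cisplatin, rose by 0.36 (SE 0.09, adjusted p = 3.42e-04, edgeR). The copper-exporting ATPase ATP7B fell from 5.673, 4.679 and 5.767 CPM to 3.179, 2.171 and 2.697 CPM, by 1.0 on the log2 scale (SE 0.18, adjusted p = 1.02e-04, edgeR), and its relative ATP7A did not pass (0.00, SE 0.12, adjusted p = 0.99, edgeR). In the list of glutathione and conjugation enzymes, which make MRP substrates, 18 were tested, 4 rose and 5 fell (median -0.15).

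Liver X receptors pair with retinoid X receptors to switch on sterol exporters. Of 13 nuclear receptors and sterol regulators tested, 1 rose and 5 fell, against 28.2% and 30.1% of all genes tested. The median log2 fold change of the 13 was -0.12. NR1H2, the widely expressed liver X receptor, was at 65.42, 60.14 and 59.39 CPM in untreated and 26.51, 17.32 and 16.62 CPM in r-CRMP2 libraries. It fell by 1.61 (SE 0.22, adjusted p = 1.54e-09, edgeR), the only gene of that list past both thresholds. Its relative NR1H3 fell by 0.50 (SE 0.17, adjusted p = 0.0062, edgeR), their partner RXRA was not called (0.14, adjusted p = 0.101, edgeR), and NR1I2, the xenobiotic receptor that induces ABCB1, was too low to test.

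Of 11 known liver X receptor targets other than ABC genes, 4 rose and 4 fell, against 28.2% and 30.1% of all genes tested. The median log2 fold change of the 11 was -0.20, and none fell past the fold threshold (lowest -0.55). The lists share members: SREBF1 and NR1H3, both lower, are also among the nuclear receptors and sterol regulators. APOE, which rose, is also among the partners of ABC proteins. MYLIP, a ligase that degrades the low-density lipoprotein receptor, rose from 15.51, 16.15 and 17.56 CPM to 34.55, 45.29 and 42.03 CPM (1.31, SE 0.13, adjusted p = 1.38e-09, edgeR). SCD, a fatty acid desaturase, rose from 455.5, 428.3 and 442.9 CPM to 985.7, 1044 and 1080 CPM (1.23, SE 0.05, adjusted p = 9.24e-12, edgeR). Both were past the fold threshold, as no ABC gene was in that direction. Among partners of ABC proteins, 19 were tested, 5 rose and 8 fell (median -0.13). MMACHC, which handles the cobalamin that ABCD4 exports, fell from 12.60, 13.30 and 11.13 CPM to 6.124, 5.857 and 6.178 CPM (-1.03, SE 0.08, adjusted p = 7.4e-07, edgeR), the only partner past both thresholds.

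**Figure D5:**
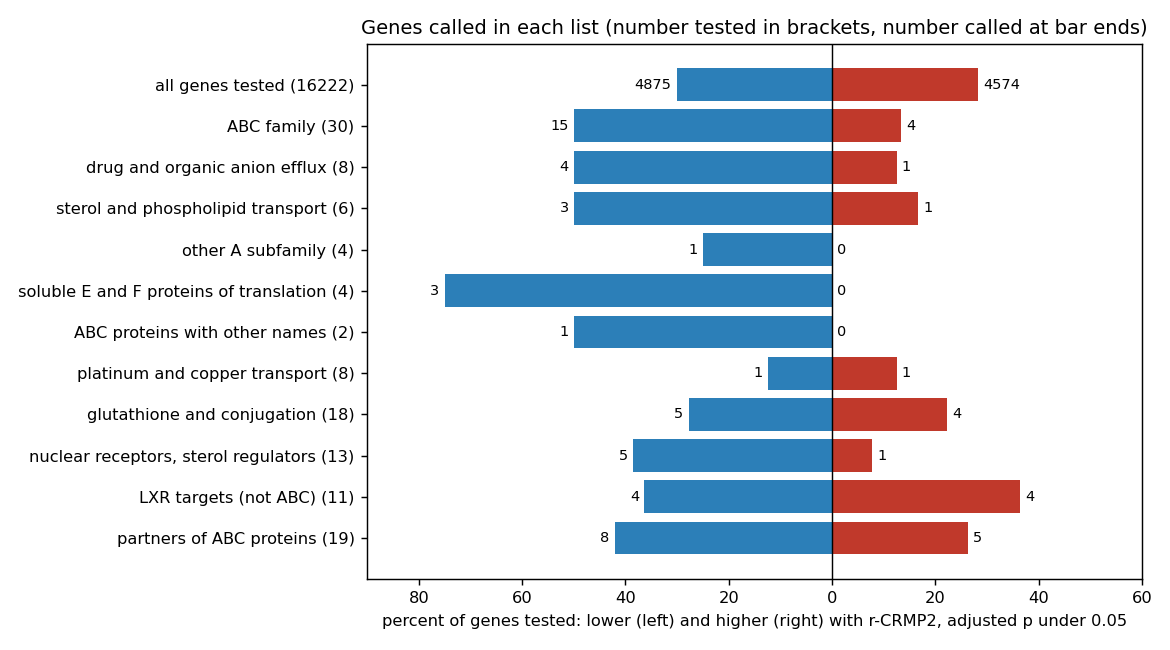
Percent of the tested genes in each list that were lower (left, blue) or higher (right, red) with r-CRMP2 at an adjusted p under 0.05, with the number tested in brackets and the number called at each bar. All genes tested are the top bar, at 30.1% lower and 28.2% higher, and the 30 ABC genes are at 50% and 13.3%. With library size alone 23 ABC genes (76.7%) were lower and 1 (3.33%) higher, against 52.1% and 13.4% of all genes.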

How the data were processed

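RNA was measured in 3 untreated and 3 r-CRMP2 A2780 libraries. Poly(A) RNA was sequenced paired-end on an Illumina instrument from a kit that does not mark strand. The submitters' processing notes name FastQC, HISAT2, DESeq2 and build hg19. The counter, annotation release and strand setting are not given in the sources used here. The deposited count per gene was tested, and the deposited TPM, which the authors derived from count and gene length, gave levels. No row was blank or a total, 27 symbols were in date form, and 2 IDs were duplicated.

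Counts were fitted over all genes with edgeR 4.0.16 in R 4.3.3 (limma 3.58.1): filterByExpr defaults, TMM, quasi-likelihood test, Benjamini-Hochberg adjustment over 16222 genes. The study's thresholds were used, an adjusted p under 0.05 and a log2 fold change of 1. SEs and 95% intervals came from log2 CPM with a prior count of 2 over 3 libraries a group, and the mean difference of these can depart slightly from the edgeR fold change. Replicate libraries differed by more than sampling noise (chi-square per degree of freedom 3.87 to 11.1). Alternatives were RLE factors, library size alone, DESeq2 1.42.0, 2 other filters, a replicate block and leaving out each library.

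The ABC genes and all lists were chosen with earlier results of these data known. Named in full were members past both thresholds, tested drug efflux genes, the highest gene of each subfamily, ABCA1 and ABCG1. Others are given by counts, range and call, with values added for some after they were seen. Of the other lists, genes past both thresholds and TAP1, TAP2, CFTR, ATP7A, ATP7B, SLC31A1, NR1H2, NR1H3, NR1I2 and RXRA were named. SREBF1 and APOE were named as genes shared between lists. Of the 45 members, 2 enter the counts but are not reported singly here.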

Additional observations from a re-analysis of the deposited data

How the results depend on the processing

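When library size replaced TMM, 1 ABC gene was higher and 23 were lower, 7 were lower past both thresholds (13.4%, 52.1% and 15.7% of all genes), 0 drug efflux genes were higher, the median log2 fold change was -0.63, and ABCA2 (-0.20) and ABCC1 (-0.26) changed sign. ABCA5 changed sign too and was called under neither scaling. That shift follows from the TMM factors. With no low-count filter the median was -0.20, taken over more genes. Leaving out 1 library gave 4 to 5 higher, 14 to 18 lower, 0 to 1 lower past both thresholds (0 without untreated replicate 3, and ABCA9 in place of ABCG2 without r-CRMP2 replicate 2), 1 drug efflux gene higher, 4 to 5 lower, and medians of -0.32 to -0.29. Over all genes those fits gave 25.1 to 27.1% higher, 26.1 to 27.9% lower and 8.3 to 9.64% lower past both thresholds. The cause of the moves among ABC genes was not tested. Counts of calls stayed within 1.5 times of those given with RLE factors, DESeq2, either filter and the replicate block, which gave 4 higher and 15 lower, the same genes. Of all genes, 27.5% were higher and 29.4% lower with the block, 29.3% and 28.9% with RLE factors, and 28.1% and 26.8% with DESeq2. These shares were 13.7% and 15.2% with no low-count filter and 29.3% and 31.2% with at least 10 counts in every library. Replicate numbers did not pair the libraries (correlations of same-numbered deviations -0.02, 0.00 and -0.03). The 22 genes at 10 TPM or more and the 10 highest were unchanged when an untreated library was left out, as were the 10 highest with counts per kilobase after TMM. The 3 libraries a group limit the precision, and 15 members had too few counts to test.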
